A study of Homo sapiens with 12 samples.

Results

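The genes described here encode subunits of the proteasome and 3 factors that assemble its cap (PSMD5, PSMD9 and PSMD10). They were chosen by name: protein-coding genes of the count data called PSMA, PSMB, PSMC or PSMD followed by a number. PSMB8, PSMB9 and PSMB11, inducible or tissue-restricted catalytic subunits, were left out, while PSMB10 of the immunoproteasome was kept. The chosen genes number 36 of 58735 in all, with 16 in the core particle (8 PSMA and 8 PSMB). The other 20 are counted with the cap (6 PSMC and 14 PSMD, the assembly factors among them). All are called subunit genes below. Their transcripts were measured by RNA sequencing of LX-2, a line of human hepatic stellate cells (genotype WT per the labels) that is used to study fibrosis in culture. Each of 4 groups had 3 libraries, 12 in all. The con cells had no treatment, and the TGFB cells had TGF-β1 at 5 ng/ml for 24 h. The SiNAT10 cells had an siRNA to NAT10, and the SiNAT10_TGFB cells had that siRNA, then from 48 h onward 5 ng/ml TGF-β1 for 24 h. NAT10 is an RNA cytidine acetyltransferase. The siRNA was carried by Lipofectamine, no group is labelled as having a control siRNA, and the sources used here do not say when the SiNAT10 cells were harvested. Transfection and loss of NAT10 therefore cannot be told apart in the siRNA comparisons.

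The proteasome degrades proteins that carry ubiquitin chains. Its core is a barrel of PSMA outer rings and PSMB inner rings, in which PSMB5, PSMB6 and PSMB7 hold the active sites, and PSMB10 takes the place of PSMB7 in the immunoproteasome. The cap binds ubiquitin, unfolds the substrate with a ring of PSMC ATPases and strips off the chain with PSMD14. When proteasome activity is short, the transcription factor NFE2L1 is released from the endoplasmic reticulum and raises the subunit genes together. In stellate cells the proteasome is known for turning over signalling proteins of the TGF-β pathway.

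Total counts ran from 25877008 to 35132582 per library, and 3 counts came to 0.0871 to 0.115 CPM, reads scaled to a common library size. Levels of a gene are given as CPM with TMM scaling, and levels compared between genes as FPKM, which divides by transcript length. NAT10 stood at 62.88 to 69.87 CPM in the con and TGFB libraries and at 15.78 to 20.68 CPM in the siRNA libraries, so all 12 matched their siRNA labels. NAT10 does not check the TGF-β1 labels, since its mean was 67.17 CPM in con and 66.97 CPM in TGFB. Of 12 stellate or mesenchymal markers, DES stayed under 0.5 CPM and LRAT at 0 in every library. The summed level of those 12 was 5364 to 5693 CPM in con, 11860 to 12560 in TGFB, 3173 to 3372 in SiNAT10 and 4221 to 4390 in SiNAT10_TGFB. COL1A1 weighs heavily in that sum, with means of 3041, 7550, 880.1 and 1364 CPM in the same order. SPARC went the other way with the siRNA alone, from 809.5 CPM in con to 1342 in SiNAT10. Of the 10 markers tested, 1 was higher and 7 lower in SiNAT10 than in con, against 26.4% of all genes each way. The hepatocyte markers ALB, APOA1, APOB and CYP3A4, the cholangiocyte markers EPCAM and KRT19, and PTPRC of leukocytes were each under 0.5 CPM in every library, and TTR was at 0. Other members of those lists were expressed: SERPINA1 of hepatocytes had a mean of 17.3 CPM in con, 14.2 in TGFB, 23.6 in SiNAT10 and 25.8 in SiNAT10_TGFB, higher in both siRNA comparisons. SOX9 of cholangiocytes had 41.5, 38.2, 66.2 and 36.2 CPM in that order, higher in SiNAT10 than in con, and CD14 of Kupffer cells 3.13, 1.56, 4.40 and 4.13 CPM, higher in SiNAT10_TGFB than in TGFB. The 4 endothelial markers summed to 1.118 to 2.333 CPM over all libraries. The part of these markers in the results below was not tested. Of the 36 genes 35 were tested. PSMA8, the testis form of an outer ring subunit, had 0 counts in every library. In bulk RNA a lower level cannot be told apart from fewer cells that carry the transcript. Replicates are labelled biological, but no separate cultures are named, so p-values reflect only the spread among these libraries.

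Some of these genes have a promoter with a match to the antioxidant response element, the kind of site that NFE2L1 and NFE2L2 bind together with small MAF proteins. The search used TGACNNNGC on both strands in the 250 bases before each start in RefSeq (GRCh38.p14), where 31 of the 36 genes had an entry, and PSMA7, PSMB1, PSMB6, PSMB7 and PSMD4 had none. It matched 5 of 31 genes (16.13%), against 3013 of all 27305 promoters (11.03%). By part these were 1 of 12 core genes and 4 of 19 cap genes. CCAAT, searched on both strands, matched 14 of 31 (45.16%), against 33.04% of all promoters. The 5 matching stretches follow because they include genes that moved in opposite directions below. They are written 5′ to 3′ on the gene's strand, with the match in capitals on whichever strand it lies.
PSMB3: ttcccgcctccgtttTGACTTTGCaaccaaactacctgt
PSMD3: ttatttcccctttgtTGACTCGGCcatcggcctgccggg
PSMD5: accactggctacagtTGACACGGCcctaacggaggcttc
PSMD9: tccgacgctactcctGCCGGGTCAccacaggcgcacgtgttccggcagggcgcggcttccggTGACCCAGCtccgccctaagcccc
PSMD12: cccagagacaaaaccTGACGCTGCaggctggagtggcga
The stretches lie at chr17:38752622-38752660 (plus strand, PSMB3), chr17:39980755-39980793 (plus, PSMD3), chr9:120843033-120843071 (minus, PSMD5), chr12:121888626-121888711 (plus, PSMD9) and chr17:67366719-67366757 (minus, PSMD12). A match describes these letters and does not show that a factor binds there.

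In untreated cells the subunit genes spanned a wide range per length. PSMD2, the large scaffold of the cap base, to which shuttle proteins deliver substrates, was the highest at 228.5 ± 10.6 FPKM (SD, n = 3), 5.67 times the median of 40.27 FPKM. That median is over 30 genes, without PSMA8 and without the 5 described in the next paragraph. It was followed by PSMA7 of the outer ring at 191.7 ± 12.4 FPKM, PSMB3 of the inner ring at 147.2 ± 7.45 FPKM and the catalytic PSMB6 at 98.44 ± 5.52 FPKM. The means of PSMD2, PSMA7, PSMB3 and PSMB6 were each apart by more than their SDs together. The neighbours PSMB4 (73.42 ± 5.99 FPKM), PSMC3 (72.88 ± 6.48 FPKM) and PSMD3 (74.41 ± 4.49 FPKM) were not. The median was 73.42 FPKM over 11 core genes, from 19.63 for PSMA4 to 191.7 for PSMA7. Over 19 cap genes it was 36.54 FPKM, from 9.104 for PSMD14 to 228.5 for PSMD2. Core genes were thus the higher per length by their medians, a difference that was not tested.

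A group of 5 genes stood far below the others: PSMA1 at 3.21 FPKM, PSMB10 at 2.673, PSMD9 at 0.5906, PSMA2 at 0.3311 and PSMA6 at 0.2801. These are the 5 whose coding bases lie for more than 50% in another annotated gene on the same strand (GENCODE 29): 88.64% in PSMA1, 97.1% in PSMA2, 70.35% in PSMA6, 58.31% in PSMB10 and 58.74% in PSMD9. The overlapping genes had few counts of their own. AC018523.2 over PSMA1 had 0 in every library, AC010132.3 over PSMA2 had 0 to 6, AL121594.1 over PSMA6 had 2 to 12 and AC040162.1 over PSMB10 had 23 to 78. Over PSMD9, AC069503.2 had 0 to 7 counts and WDR66 had 221 to 322. The sources used here do not say how the counting treated reads in shared bases, and its part in the low levels was not tested. Counts of PSMA6 pseudogenes came to 30.41% of its own, so its reads are the least certain. The counts of called genes in each comparison are given with and without these 5.

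**Figure D1:**
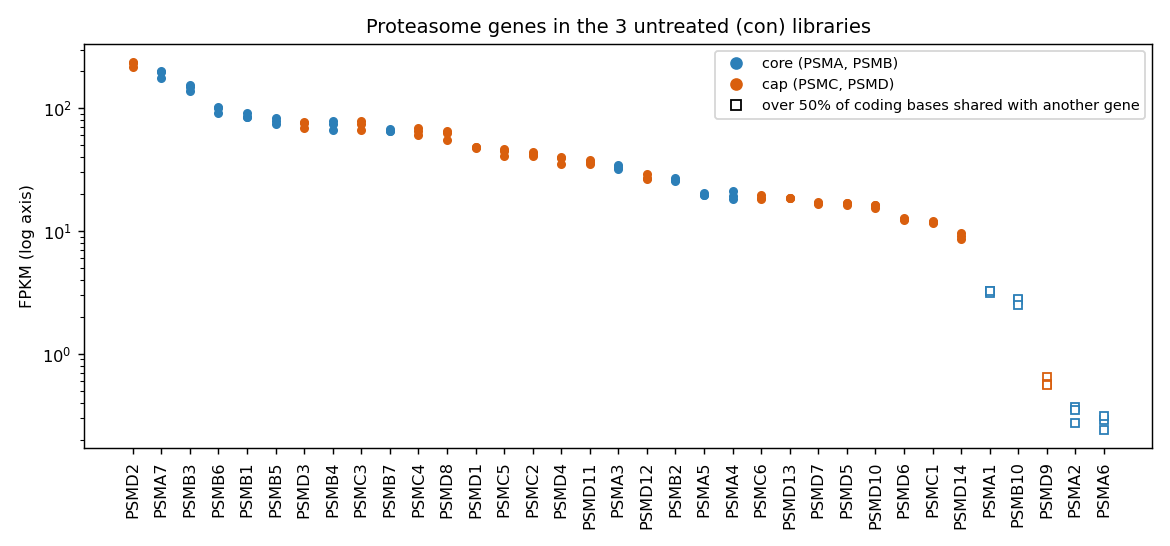
Level per length (FPKM, log axis) of the 35 detected subunit genes in the 3 con libraries, each point 1 library, core in blue and cap in orange, in falling order of the mean. The 5 open squares, the genes that share over 50% of their coding bases with another gene, all lie below PSMD14 at 9.104 FPKM.

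What TGF-β1 does to stellate cells without siRNA is the question of the TGFB and con groups. The genes that rose were PSMD2, the ATPase PSMC4 and the deubiquitinase PSMD14, 3 of 20 cap genes (15%) and 0 of 15 core genes. None of the 35 fell. That is 3 of 35 higher, or 8.571%, against 11.9% of all genes tested, and 0 lower against 12.2% (24.1% in either direction). The 3 called genes are all outside the group with shared bases. The cap share is near the 11.9% of all genes, and the difference between cap and core was not tested. The median log2 fold change was 0.07 over the 35 genes, 0.08 over the 15 core genes and 0.05 over the 20 cap genes, against −0.01 over all genes. With scaling to library size alone, which moved the median of all genes to −0.14 and its calls to 1410 higher (7.6%) and 4623 lower (24.9%), from 2213 and 2259, the subunit median was −0.07, PSMD2 remained higher, and PSMC2 (−0.21), PSMD1 (−0.17) and PSMD9 (−0.44) were lower, the last of these among the 5 with shared bases. The direction of small TGF-β1 changes thus depends on the scaling.

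PSMD2 (ENSG00000175166, chromosome 3 from 184298709 to 184309054 in hg38) had 1183, 1293 and 1273 CPM in con and at 1857, 1848 and 1875 CPM in TGFB. The groups did not overlap, and every TGFB library was above every con library by several times their spread. The fold change was 1.49, a log2 value of 0.57 (SE 0.048, adjusted p = 2.48e-09). It ranged from 0.54 to 0.60 when any 1 library was left out and was called each time. The next protein-coding gene on the chromosome, EIF4G1, a translation initiation factor, rose by 0.30 (adjusted p = 1.00e-04).

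The rise of PSMD2 was also seen in siRNA-treated cells. It stood at 1417, 1313 and 1285 CPM in SiNAT10 and at 1891, 1876 and 1845 CPM in SiNAT10_TGFB, again without overlap, with a log2 value of 0.48 (SE 0.048) and an adjusted p of 9.55e-08. The difference between the 2 TGF-β1 effects was −0.09 (SE 0.068, adjusted p = 0.58). PSMD2 made up 26.26 to 27.18% of the summed FPKM of the cap genes in con and 34 to 34.34% in TGFB. The cap sum was 858.5 ± 33.9 FPKM in con and 995.2 ± 8.52 in TGFB, and without PSMD2 it was 630 and 654.8.

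PSMC4, an ATPase of the cap ring (chromosome 19, 39971005 to 39981441), stood at 144.2, 155.3 and 164.1 CPM in con and at 177.9, 177.6 and 174.3 CPM in TGFB. The groups did not overlap, and the log2 fold change was 0.19 (SE 0.062, adjusted p = 0.0263). PSMD14, which cuts the ubiquitin chain from the substrate, changed by 0.20 on that scale (SE 0.067, adjusted p = 0.0295). Both calls were marginal. That of PSMC4 was lost without con replicate 1 (0.15), con replicate 2 (0.20) or any TGFB replicate (0.18 to 0.19), and that of PSMD14 without con replicate 1 (0.21), con replicate 2 (0.16), TGFB replicate 1 (0.17) or TGFB replicate 2 (0.20). With library size scaling they were 0.06 and 0.07.

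No core gene passed the test for TGF-β1, although PSMA5 (0.19), PSMA6 (0.52) and PSMB2 (0.18) passed once each library's trend with GC content was removed. With the cap gene PSMC1 that made 7 of 35 higher (6 of 30 without the 5) and 0 lower, against 15% and 15.5% of all genes. PSMB2, a structural inner ring subunit, stood at 130.8, 122.9 and 127.3 CPM in con and at 145.8, 139.7 and 133.7 CPM in TGFB, which did not overlap, yet its log2 fold change of 0.14 (SE 0.06) had an adjusted p of 0.107. PSMA6 stood at 1.9, 2.0 and 1.6 CPM in con and at 2.6, 2.4 and 2.6 CPM in TGFB, a log2 difference of 0.47 (SE 0.2) with an adjusted p of 0.0953. Among the ATPases the values ran from −0.08 for PSMC2 to 0.19 for PSMC4.

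In siRNA-treated cells TGF-β1 raised PSMD2 and the lid subunit PSMD7, 2 of 35 (5.714%) against 5.92% of all genes, and lowered none against 5.15% (11.1% in either direction). Neither gene is among the 5, so these were 2 of 30 without them. By library size 876 genes were higher (4.72%) and 1510 lower (8.14%) in place of 1098 and 956. Removal of the GC trend gave 3 of 35 higher, with PSMD14, and 0 lower, against 8.24% and 7.7%. PSMD7 rose by 0.24 (SE 0.075, adjusted p = 0.041) on the log2 scale, and lost its call in 6 of the 12 fits without 1 library. In 3 of these the missing library belonged to the groups compared: without SiNAT10 replicate 2 it was 0.21, and without SiNAT10_TGFB replicates 2 or 3 it was 0.23 or 0.18. The other 3 left out con replicate 2, con replicate 3 or TGFB replicate 1, which enter through the shared spread. In the core, PSMA5 of the outer ring stood at 121.0, 118.6 and 119.0 CPM in SiNAT10 and at 117.4, 132.1 and 136.8 in SiNAT10_TGFB, which overlapped (0.11, adjusted p = 0.362).

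**Figure D2:**
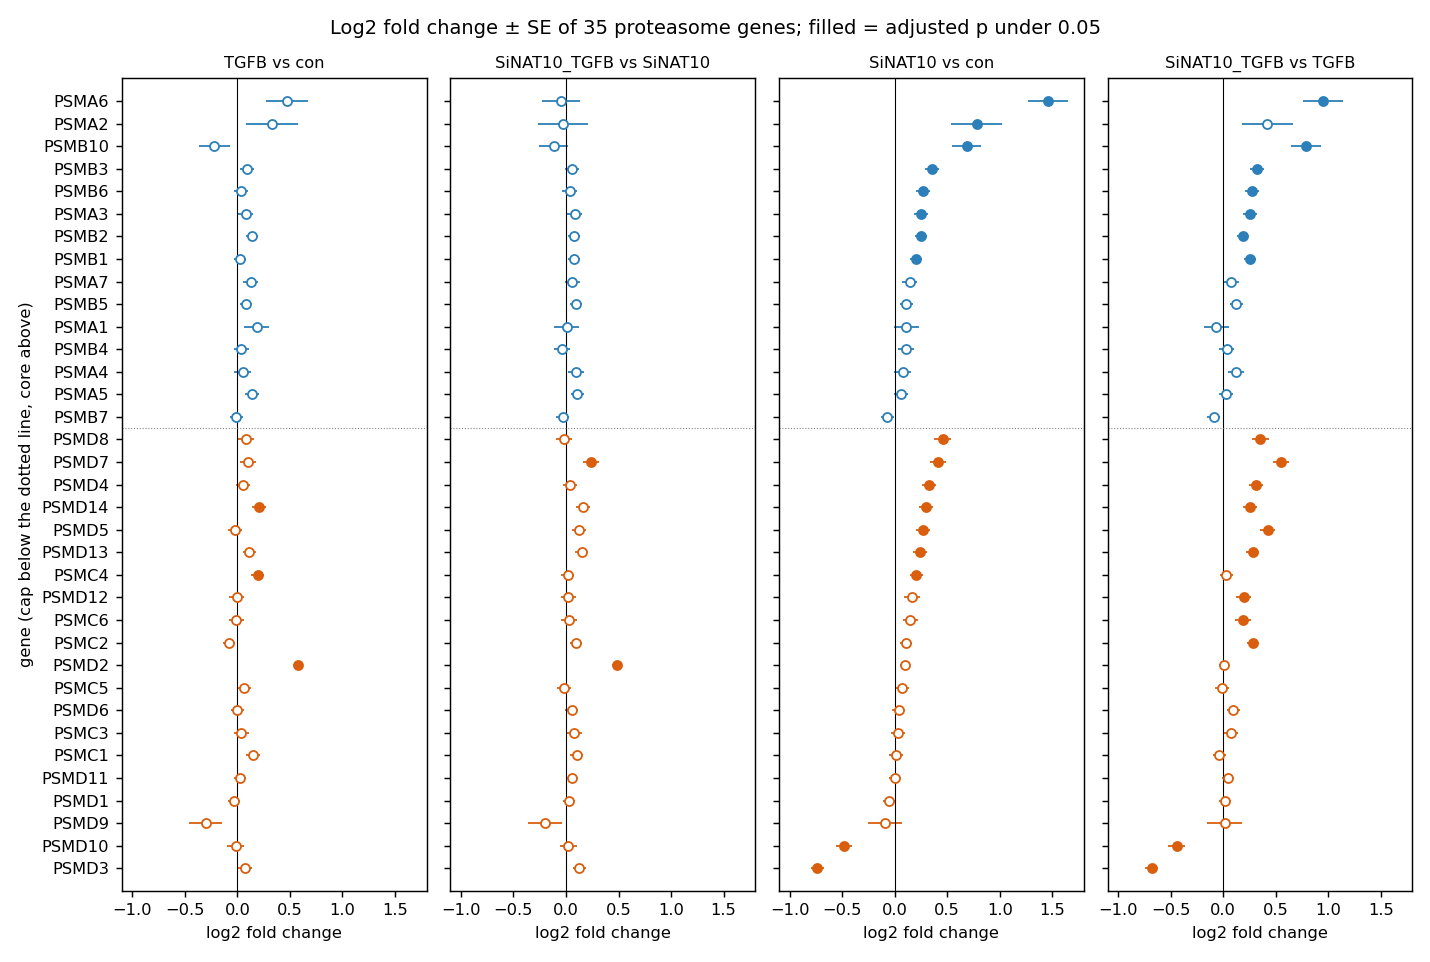
Log2 fold change with its standard error of the 35 tested subunit genes in 4 comparisons, cap genes below the dotted line and core genes above it, filled where the adjusted p was under 0.05. PSMD2 is the highest in the 2 TGF-β1 comparisons at 0.57 and 0.48, though PSMA6 lies near it without siRNA at 0.47 (SE 0.2). The 2 siRNA comparisons share their highest and lowest genes.

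The SiNAT10 and con groups address what the NAT10 siRNA does without TGF-β1. Most called subunit genes rose, by small amounts, and 2 genes counted with the cap fell, 1 of them the assembly factor PSMD10. Of 35, 15 were higher (42.86%) against 26.4% of all genes tested, and 2 were lower (5.714%) against 26.4% (52.8% in either direction). In the core 8 of 15 were higher and 0 lower, and in the cap 7 of 20 were higher and 2 lower. Without the 5 genes with shared bases, 12 of 30 were higher and 2 lower, or 5 of 11 core genes higher and 7 of 19 cap genes higher. The median log2 fold change was 0.15, with 0.20 in the core and 0.11 in the cap, against 0.02 over all genes. With each library's trend with GC removed, described below, these medians were 0.02, 0.06 in the core and −0.05 in the cap, where 9 of 20 genes were above 0, 7 were called higher and 5 lower. The difference between core and cap was not tested.

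The SiNAT10_TGFB and TGFB groups put the same question in the presence of TGF-β1, in libraries that the comparison above does not share. Here 16 of 35 were higher (45.71%) against 26.3% of all genes, and 2 were lower against 26.8% (53.1% in either direction). These were 7 of 15 core genes higher and 0 lower, and 9 of 20 cap genes higher and 2 lower, or 14 of 30 higher and 2 lower without the 5 (5 of 11 core genes and 9 of 19 cap genes higher). The median log2 fold change was 0.12, with 0.19 in the core and 0.08 in the cap, against 0.01 over all genes. With the GC trend removed they were 0.04, 0.04 in the core and 0.02 in the cap, where 7 genes were higher and 6 lower.

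Of the called genes 13 were higher in both siRNA comparisons, 86.67% of the first list and 81.25% of the second, or 11 without the 5. Over all genes tested the shared rises were 77.57% and 77.79% of the lists. PSMD3 and PSMD10 were lower in both. PSMA2 and PSMC4 were called without TGF-β1 only, and PSMC2, PSMC6 and PSMD12 with it only, but the test of the difference itself called none of the 35 genes. For that test 3.85% of all genes passed (1.94% higher and 1.91% lower), 0 of the 35 had an unadjusted p under 0.05 against 15.59% of all genes, and DESeq2, voom and FPKM also gave 0. Pearson's r between the log2 fold changes of the 35 genes was 0.929, a description across genes, which are not independent replicates. Its points share the gene's length and base composition, and not libraries.

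A trend with GC content accompanied the siRNA changes and bears on these counts. Transcript GC of the 35 genes ran from 31.96 to 60.1%. When each library's trend with GC was removed, 13 genes were higher and 7 lower in SiNAT10 against con (10 and 7 without the 5), against 25.4% of all genes higher and 28.7% lower, whose median was −0.01. In SiNAT10_TGFB against TGFB 12 were higher and 8 lower (10 and 8 without the 5), against 25.7% and 28.6%, with a median of −0.03 over all genes. The 5 rises that were no longer called without TGF-β1 were those of PSMA3, PSMB1, PSMB2, PSMD5 and PSMD14, all at 31.96 to 43.59% GC. With TGF-β1 they were those of PSMA3, PSMB1, PSMB2, PSMC2, PSMC6, PSMD12 and PSMD14, over the same GC range. Other genes passed only with the trend removed. Those higher were PSMA7, PSMC3 and PSMD2 without TGF-β1 and PSMA7, PSMC3 and PSMC4 with it, at 54.33 to 56.2% GC. Those lower were PSMA5, PSMB7, PSMD1, PSMD6 and PSMD11 without TGF-β1 and PSMA5, PSMB7, PSMC1, PSMC5, PSMD1 and PSMD6 with it, at 37.25 to 49.9% GC. Rises outnumbered falls by 15 to 2 and 16 to 2 as fitted. By library size, which moved the median of all genes to 0.08 and 0.14, they did so by 22 to 2 and 26 to 2 (19 to 2 and 24 to 2 without the 5). All genes then had 29.7% higher and 23.9% lower without TGF-β1, and 34.0% higher and 21.5% lower with it.

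Both siRNA calls were kept under all 27 alternatives tried, the GC correction among them, by 8 genes that rose and 2 that fell. The 8 that rose are PSMA6, PSMB3, PSMB6 and PSMB10 of the core and PSMD4, PSMD7, PSMD8 and PSMD13 of the cap. The 2 that fell are PSMD3 and PSMD10. Without PSMA6 and PSMB10, which share coding bases with other genes, 6 rose. How many of all genes were kept in this way was not counted, so these numbers have no background beside them. As fitted, the 2 comparisons shared 77.57% and 77.79% of the rises of all genes, and 79.93% and 78.92% of the falls.

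**Figure D3:**
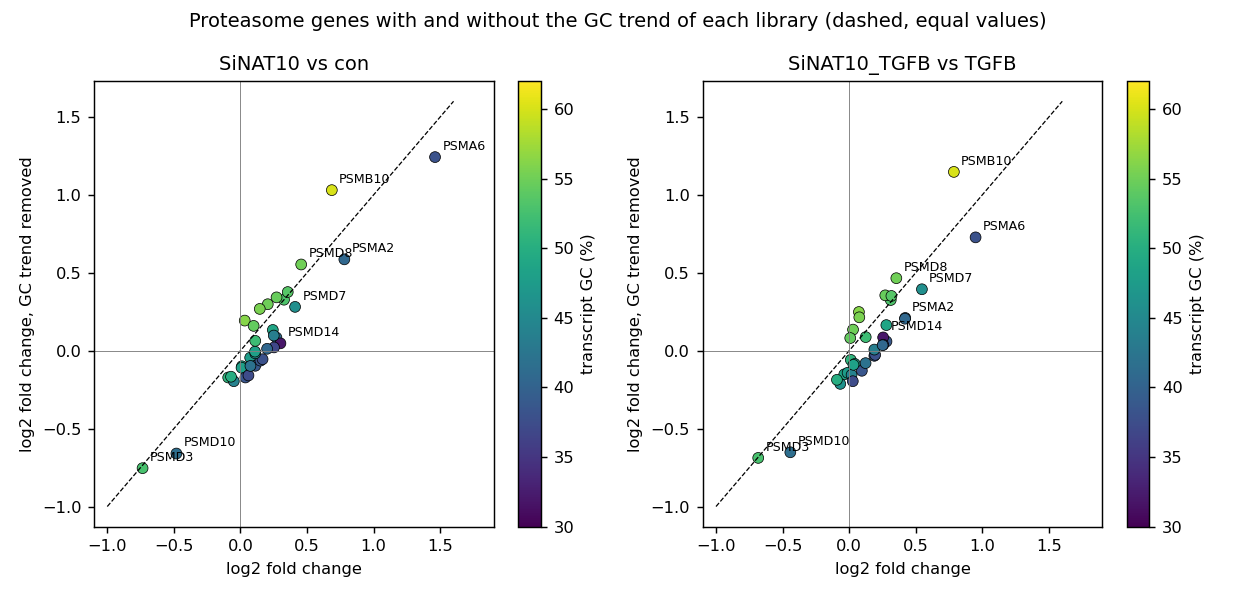
Log2 fold change of the 35 genes in the 2 siRNA comparisons as fitted (horizontal) and with each library's GC trend removed (vertical), coloured by transcript GC. Genes of low GC mostly lie under the dashed line of equal values and genes of high GC above it, while PSMD3 and PSMD10 stay at the bottom left in both panels.

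PSMD3, a scaffold subunit of the lid, fell the most of the 35. PSMD3 (ENSG00000108344; chromosome 17, 39980797 to 39997960) stood at 345.0, 378.4 and 388.0 CPM in con and at 241.3, 225.0 and 201.1 CPM in SiNAT10. It stood at 400.0, 371.9 and 397.5 CPM in TGFB and at 243.9, 244.4 and 240.3 CPM in SiNAT10_TGFB. All 6 siRNA libraries lay below all 6 others. The log2 fold change was −0.74 (SE 0.064, adjusted p = 1.56e-09) without TGF-β1 and −0.68 (SE 0.064, adjusted p = 4.75e-09) with it, and −0.75 and −0.69 with the GC trend removed.

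PSMD10, known as gankyrin, is a chaperone that helps to assemble the cap base and leaves before the cap is complete. PSMD10 (chromosome X, 108084207 to 108091618) stood at 39.8, 37.6 and 40.4 CPM in con and at 27.2, 28.6 and 28.7 CPM in SiNAT10. It stood at 38.7, 38.2 and 39.7 CPM in TGFB and at 25.6, 30.8 and 29.4 CPM in SiNAT10_TGFB. The siRNA libraries were again below all the others, with log2 fold changes of −0.48 (SE 0.08, adjusted p = 2.29e-05) and −0.44 (SE 0.08, adjusted p = 6.17e-05). Reads of its 3 named pseudogenes came to 2.507% of its counts.

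As fitted, the remaining lid genes went the other way or did not pass. Of 8 lid genes 4 rose and 1 fell without TGF-β1, against 26.4% of all genes each way. With it 5 rose and 1 fell, against 26.3% and 26.8%. Once the GC trend was removed, PSMD7, PSMD8 and PSMD13 stayed higher in both comparisons, while PSMD12 and PSMD14 passed in neither. PSMD7, the partner of the deubiquitinase PSMD14, stood at 45.2, 46.3 and 47.4 CPM in con, 62.8, 59.0 and 62.5 in SiNAT10, 51.3, 46.1 and 51.7 in TGFB, and 65.0, 73.8 and 79.0 in SiNAT10_TGFB. Its groups did not overlap in either siRNA comparison, with log2 fold changes of 0.41 (SE 0.076, adjusted p = 8.37e-05) and 0.55 (SE 0.076, adjusted p = 1.88e-06). An antisense transcript, AC009120.2, covers 30.73% of the exon bases of PSMD7, with 37 to 103 counts of its own per library, and whether the counting used strand is not stated. PSMD8, the last subunit to join the lid, rose by 0.46 and 0.35, and PSMD13 by 0.24 and 0.28. PSMD14 rose by 0.30 and 0.26 as fitted and stood at 0.05 and 0.09 with the GC trend removed. The structural lid subunits PSMD6 and PSMD11 did not pass in either comparison, at 0.04 and 0.10 for PSMD6 and 0.01 and 0.04 for PSMD11. Once the GC trend was removed PSMD6 was lower in both, at −0.17 and −0.13 (adjusted p = 0.00825 and 0.0441), and PSMD11 without TGF-β1, at −0.11 (adjusted p = 0.0442).

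In the cap base, PSMD4, a ubiquitin receptor, rose by 0.33 (SE 0.068) and 0.31 (SE 0.068). The scaffold PSMD2 stood at 0.10 (adjusted p = 0.0889) and 0.01 (adjusted p = 0.902), and its companion PSMD1 at −0.05 and 0.02. After removal of the GC trend PSMD2 was higher without TGF-β1 (0.16, adjusted p = 0.000399) and PSMD1 lower in both (−0.20 and −0.16). Among the 6 ATPases, PSMC4 rose by 0.21 without TGF-β1 (adjusted p = 0.0082, lost without con replicate 1 at 0.15 or SiNAT10 replicate 1 at 0.15), standing at 190.5, 175.0 and 169.0 CPM in SiNAT10 against the con values above. With TGF-β1 PSMC4 stood at 173.6, 177.8 and 189.0 CPM, a log2 fold change of 0.03, which was 0.14 and passed with the GC trend removed.

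PSMC2, another ATPase, gave the smallest p of the 35 in the test of the difference. It stood at 145.3, 149.4 and 156.7 CPM in con, 161.6, 160.9 and 165.0 in SiNAT10, 148.2, 146.5 and 133.4 in TGFB and 174.0, 169.0 and 177.0 in SiNAT10_TGFB. Its siRNA effect was 0.11 (adjusted p = 0.114) and 0.28 (SE 0.058, adjusted p = 2.74e-04), with a difference of 0.17 (SE 0.082, adjusted p = 0.323). With the GC trend removed these effects were −0.10 (adjusted p = 0.143) and 0.06 (adjusted p = 0.387), so the second was no longer called. PSMC6 and PSMD12 had log2 fold changes of 0.19 and 0.20 with TGF-β1. The call of PSMC6 was lost without TGFB replicate 3 (0.15), SiNAT10_TGFB replicate 2 (0.19) or replicate 3 (0.16), and that of PSMD12 without TGFB replicates 1 (0.19) or 3 (0.16) or SiNAT10_TGFB replicates 2 (0.16) or 3 (0.18). The assembly factor PSMD5 rose by 0.27 and 0.42, and stood at 0.08 and 0.21 with the GC trend removed.

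**Figure D4:**
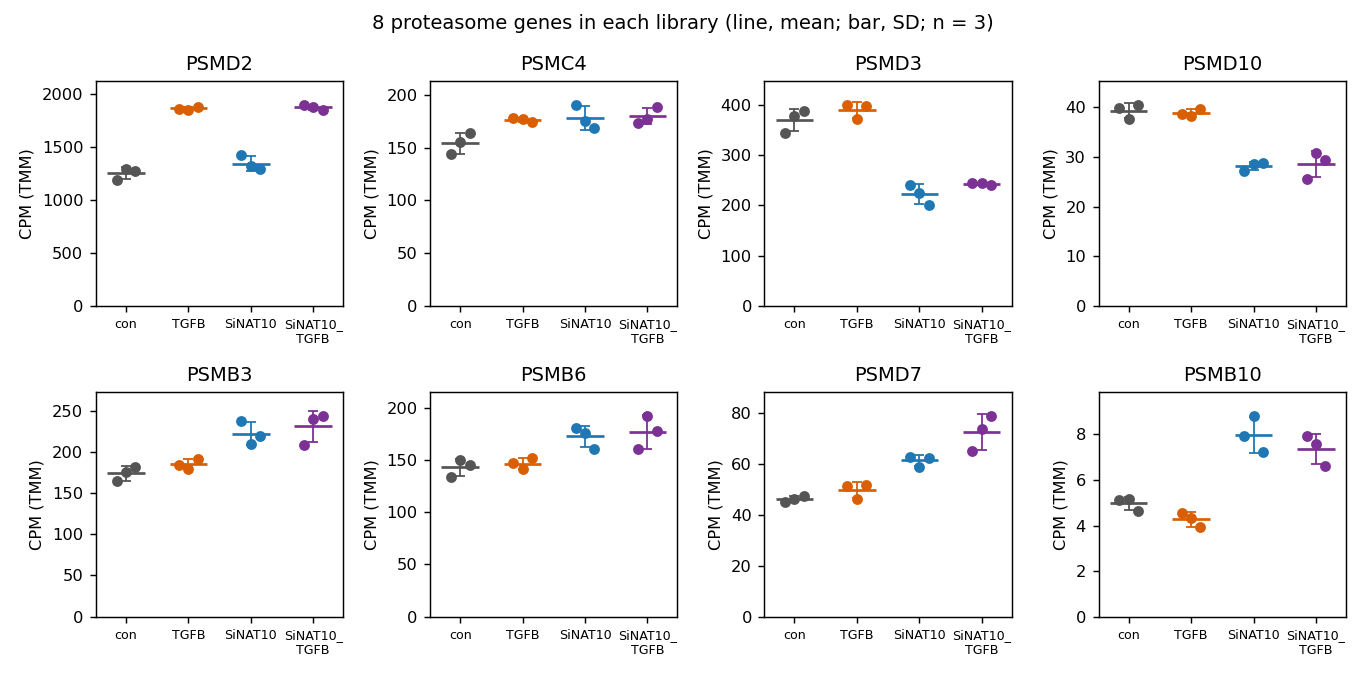
CPM of 8 subunit genes in each of the 12 libraries, with the mean (line) and SD (bar) of each group of 3, all axes from 0. PSMD2 is high in both groups given TGF-β1, PSMD3 and PSMD10 are low in both siRNA groups, and PSMB3, PSMB6, PSMD7 and PSMB10 are high in both siRNA groups.

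In the core the catalytic subunits differed in their calls, and no test compared them with each other. PSMB6, the caspase-like site (chromosome 17, 4796144 to 4798503), stood at 134.0, 149.6 and 145.2 CPM in con, 181.1, 175.5 and 160.9 in SiNAT10, 146.9, 140.9 and 151.7 in TGFB and 160.5, 192.3 and 177.5 in SiNAT10_TGFB. It rose by 0.27 in both comparisons (SE 0.069 each, adjusted p = 0.00201 and 0.00194), with no overlap of the groups. PSMB5, the chymotrypsin-like site that bortezomib blocks, stood at 131.8, 138.4 and 147.9 CPM in con, 158.0, 147.9 and 145.6 in SiNAT10, 153.2, 145.9 and 143.8 in TGFB and 156.3, 166.3 and 160.1 in SiNAT10_TGFB. Its log2 fold changes of 0.11 (SE 0.06) and 0.12 (SE 0.06) did not pass (adjusted p = 0.129 and 0.0881). By library size they were 0.17 and 0.25 and both passed (adjusted p = 0.0195 and 0.000719).

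PSMB7, the trypsin-like site, and PSMB10, its immunoproteasome counterpart, differed in their calls in the siRNA comparisons. PSMB7 stood at 116.9, 117.0 and 122.0 CPM in con, 108.7, 109.2 and 121.1 in SiNAT10, 115.1, 118.2 and 120.1 in TGFB and 102.6, 116.4 and 112.5 in SiNAT10_TGFB. Its log2 fold changes were −0.07 and −0.09 (adjusted p = 0.37 and 0.234), and −0.17 and −0.19 with the GC trend removed, which passed. PSMB10 (chromosome 16, 67934502 to 67937087) stood at 5.1, 5.2 and 4.6 CPM in con, 7.9, 8.8 and 7.2 in SiNAT10, 4.6, 4.3 and 3.9 in TGFB and 7.9, 7.6 and 6.6 in SiNAT10_TGFB. It rose by 0.69 (SE 0.14, adjusted p = 2.77e-04) and 0.79 (SE 0.14, adjusted p = 7.04e-05), with no overlap, at a level low per length. PSMB10 is one of the genes with shared bases. Beside it, the interferon factor IRF1, which drives immunoproteasome genes, rose by 0.97 without TGF-β1 and by 0.83 with it. NLRC5, which activates MHC class I genes, fell by 0.88 and 1.30.

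Of the 4 structural inner ring genes, PSMB1, PSMB2 and PSMB3 rose as fitted in both siRNA comparisons and PSMB4 did not pass in either. Of all genes 26.4% and 26.3% were higher. PSMB1 rose by 0.20 and 0.25, and stood at 0.012 and 0.035 with the GC trend removed (adjusted p = 0.877 and 0.624). Only PSMB3 of these kept its calls with that trend removed. PSMB3 (chromosome 17, 38752736 to 38764231) stood at 164.4, 175.6 and 182.0 CPM in con, 237.4, 210.4 and 219.7 in SiNAT10, 184.8, 179.9 and 192.1 in TGFB and 209.2, 240.2 and 244.1 in SiNAT10_TGFB. Its siRNA libraries were above all the others, with log2 fold changes of 0.36 (SE 0.066, adjusted p = 9.08e-05) and 0.32 (SE 0.066, adjusted p = 2.97e-04). PSMB2 rose by 0.25 and 0.19, and stood at 0.10 and 0.01 with the GC trend removed. Its second call was lost without TGFB replicate 3 (0.16) or SiNAT10_TGFB replicate 2 (0.15).

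In the outer ring PSMA6 had the highest log2 fold change of the 35 genes in both siRNA comparisons and PSMA2 the next without TGF-β1, both at very low levels. PSMA6 stood at 4.7, 4.7 and 5.7 CPM in SiNAT10 and at 4.2, 5.9 and 4.6 CPM in SiNAT10_TGFB, above the con and TGFB values given earlier. Its log2 fold changes were 1.46 (SE 0.19, adjusted p = 9.91e-07) and 0.95 (SE 0.19, adjusted p = 1.66e-04), with a difference of −0.51 (SE 0.27, adjusted p = 0.373). PSMA2 stood at 2.0, 1.5 and 1.9 CPM in con, 2.2, 3.4 and 3.5 in SiNAT10, 2.7, 2.1 and 1.9 in TGFB and 2.3, 3.6 and 3.1 in SiNAT10_TGFB. It rose by 0.78 (SE 0.24, adjusted p = 0.00998) without TGF-β1, a call lost without con replicate 2 (0.66), and stood at 0.42 (adjusted p = 0.151) with it. Both genes share most coding bases with another gene. Of the well expressed outer ring genes, PSMA3 rose by 0.25 and 0.26, and PSMA4, PSMA5 and PSMA7 did not pass, at 0.03 to 0.15. Removal of the GC trend left PSMA3 at 0.02 and 0.04 and no longer called, while PSMA7 was higher in both (0.27 and 0.21, adjusted p = 0.000131 and 0.0014) and PSMA5 lower in both (−0.16 and −0.20, adjusted p = 0.0444 and 0.0137).

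Seen by library, the median log2 ratio to the con mean over the 11 core genes without shared bases was −0.06 to 0.06 in con, 0.06 to 0.09 in TGFB, 0.09 to 0.21 in SiNAT10 and 0.17 to 0.28 in SiNAT10_TGFB. Over the 19 cap genes it was −0.03 to 0.03, 0.04 to 0.09, 0.08 to 0.16 and 0.12 to 0.23. Con and siRNA libraries did not overlap in either part. Nor did con and TGFB in the cap, where the highest con library was at 0.034 and the lowest TGFB library at 0.035. In the core these 2 groups overlapped narrowly, at 0.061 and 0.059. These ratios keep the GC trend: with it removed, the median of SiNAT10 against con was 0.02 over the same 11 core genes and was −0.05 over the 19 cap genes. The core sum was 841.7 ± 38.9 FPKM in con and 961.1 ± 44.5 in SiNAT10, and 887.7 ± 16.7 in TGFB and 997.8 ± 70.5 in SiNAT10_TGFB.

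**Figure D5:**
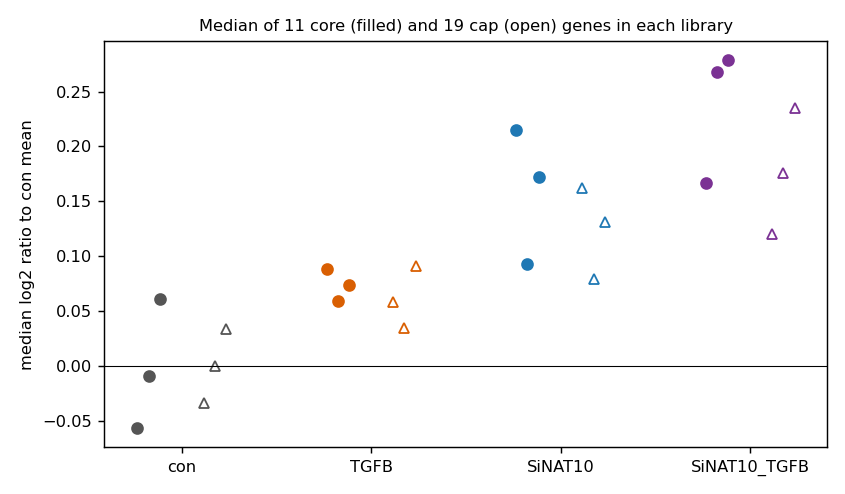
Median log2 ratio to the con mean over 11 core genes (filled circles) and 19 cap genes (open triangles) without shared coding bases, each point 1 library. In every library of SiNAT10 and SiNAT10_TGFB both medians lie above 0, from 0.08 to 0.28, with the GC trend left in. With it removed the cap median of SiNAT10 against con was −0.05.

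The wider pathway was followed in 45 genes of 8 lists. Of these 22 were higher and 8 lower in SiNAT10 against con, and 22 higher and 11 lower in SiNAT10_TGFB against TGFB. The shares over all genes were 26.4% higher and 26.4% lower, and 26.3% and 26.8%, the background for each siRNA count of a list below. TGF-β1 raised 8 and lowered 5 without siRNA (11.9% and 12.2% of all genes), and raised 6 and lowered 0 with it (5.92% and 5.15%). With the GC trend removed the siRNA counts were 18 higher and 11 lower, and 23 and 14. The TGF-β1 counts were then 17 and 7, and 11 and 3. By library size the siRNA counts were 27 and 8, and 30 and 6, and the TGF-β1 counts were 6 and 9, and 5 and 4. Of 6 chaperones that assemble the core or cap, 5 rose and 0 fell with the siRNA alone (median 0.29), and 5 rose and 1 fell with TGF-β1 present (median 0.32). POMP, which completes the core barrel, rose by 0.48 and 0.37, and PAAF1, a cap chaperone, by 0.58 and 0.96. PSMG4, a chaperone of the outer ring, was the exception, at 0.07 without TGF-β1 and falling by 0.54 with it.

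Of the 10 genes of the NFE2L1 pathway, which raises subunit genes together, 3 rose and 3 fell with the siRNA alone, close to the share of all genes (26.4% each way). With TGF-β1 present 4 rose and 4 fell. NFE2L1 itself stood at 435.7, 465.4 and 460.9 CPM in con, 399.2, 368.0 and 360.9 in SiNAT10, 485.2, 481.9 and 491.3 in TGFB and 424.7, 416.3 and 417.8 in SiNAT10_TGFB. It fell by 0.27 (adjusted p = 0.000128) and 0.21 (adjusted p = 0.00148), the second of which did not pass by library size, at −0.08. DDI2, the protease that releases NFE2L1, fell by 0.36 and 0.24, the second again not called by library size, at −0.11. NGLY1, which removes its sugars, rose by 0.23 and 0.59, and stood at −0.003 and 0.38 with the GC trend removed. NFE2L2, its relative in the oxidative stress response, stood at 0.14 (adjusted p = 0.123) and rose by 0.31 with TGF-β1 present. Of the small MAF genes, MAFF had means of 32.82 CPM in con and 68.91 in SiNAT10, and 46.93 in TGFB and 73.19 in SiNAT10_TGFB. MAFG had 56.19, 74.08, 70.39 and 77.96 CPM in that order. MAFK had 51.7, 47.33, 104.4 and 62.55 CPM, the other way.

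Of 6 ubiquitin and E1 genes 4 rose and 0 fell in each siRNA comparison, among them the E1 enzyme UBA6, at 0.39 and 0.61. Of 9 shuttle and VCP genes 4 rose and 4 fell without TGF-β1, and 3 rose and 4 fell with it. ZFAND5, a protein that stimulates the proteasome, rose by 0.64 and 0.67, and NPLOC4, a cofactor of the VCP unfoldase, fell by 0.33 and 0.29. Of 5 activators and inhibitor genes 2 and 3 rose and 0 fell. PSME4, an alternative cap, rose by 0.36 with TGF-β1 present, and PSME1, a subunit of the interferon-induced cap, by 0.17 and 0.32. The receptor ADRM1, a cap subunit outside the PSM names, rose by 0.31 and 0.28. Of 4 cap-bound ubiquitin enzymes 1 rose without TGF-β1 and 1 fell with it. With the GC trend removed, 0 of these rose in either comparison, and 2 fell without TGF-β1 and 3 with it. The activators and inhibitor then had 1 and 3 rises and 0 falls, and the ubiquitin and E1 genes 4 and 5 rises and 0 falls. The shuttle and VCP genes had 3 rises in each and 4 and 5 falls.

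Of the 36 genes, 21 were called in at least 1 comparison and 14 in none. The share of all genes called in at least 1 was not counted. The siRNA comparisons alone called 52.8% of all genes without TGF-β1 and 53.1% with it. The 14 are PSMA1, PSMA4, PSMA5, PSMA7, PSMB4, PSMB5, PSMB7, PSMC1, PSMC3, PSMC5, PSMD1, PSMD6, PSMD9 and PSMD11. PSMC1 shares 75.82% of its exon bases with the antisense gene NRDE2, which had 895 to 1144 counts per library, and PSMC5 shares 19.47% with FTSJ3, which had 2396 to 4202. A missing call does not show that these genes did not differ.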

How the data were processed

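The authors deposited gene counts and FPKM for 58735 genes in 12 libraries. Per the submitters' processing notes, the tools were fastp and HISAT2 2.2.1 and the build was hg38. Counting tool, annotation and strand setting: not given in the sources used here. All rows had the start and end of GENCODE 29. Deposited FPKM matched FPKM recomputed from the authors' counts up to a factor per library (0.9334 to 1.088). Counts were fitted in R 4.3.3 with edgeR 4.0.16: filterByExpr defaults (18560 genes kept), TMM scaling, a quasi-likelihood fit with 4 group means over all 12 libraries, Benjamini-Hochberg adjustment over all genes and an adjusted p under 0.05. The SE is the log2 fold change divided by the square root of F, in absolute value. The pipeline was tested on simulated data. There it called 18% of 50 genes given a log2 change of 0.25 in TGFB against con, and 48% of 50 given 0.5. Those genes were drawn from a wide range of levels, so these shares are not those of the subunit genes. Alternatives were other scalings and filters, DESeq2 1.42.0, voom (limma 3.58.1), log2(FPKM + 1) and log2(FPKM + 0.1), a replicate block, removal of each library's GC trend (a spline of 5 degrees of freedom), a threshold of 0.01, only the groups compared, and omission of each library.

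The genes and lists were chosen with earlier results of these data known. Values in every library are given for PSMB5, PSMB6, PSMB7, PSMB10 and, in each comparison, the 2 core and 2 cap genes with the smallest p. Other subunits are named as lowest, highest or exception, and list genes by the smallest p (up to 3 a list), besides NFE2L1 and NFE2L2. Some list genes that this rule names are not reported here. The grouping by role, the counts of the lists under other settings, the removal of genes with shared coding bases and the naming of PSMD2's neighbour were chosen after seeing the data. No column was left without a sample.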

Additional observations from a re-analysis of the deposited data

Results flagged for a closer look

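No subunit gene passed the test of whether its siRNA effect differed with and without TGF-β1. Among the 45 pathway genes 4 passed it, against 3.85% of all genes, each with a siRNA effect lower with TGF-β1 than without it. That single direction depended on the setting: 3 were higher and 2 lower by library size, and 3 higher and 4 lower with the GC trend removed. By library size MAFF (−0.35, adjusted p = 0.0893) and NLRC5 (−0.34, adjusted p = 0.0754) were not called, and neither was called with a replicate block. PSMG4, an assembly chaperone, differed by −0.61 (edgeR adjusted p = 0.0207): it stood at 16.34 ± 1.07 CPM in con, 17.14 ± 2.04 in SiNAT10, 20.59 ± 1.05 in TGFB and 14.2 ± 1.3 in SiNAT10_TGFB. MAFK, a small MAF partner of NFE2L1, differed by −0.61 (adjusted p = 0.00174), with 51.7 ± 0.812, 47.33 ± 6.39, 104.4 ± 2.22 and 62.55 ± 3.45 CPM in the same order. MAFF differed by −0.43 (adjusted p = 0.0367), with 32.82 ± 0.729, 68.91 ± 8.23, 46.93 ± 2.8 and 73.19 ± 4.33 CPM. NLRC5 differed by −0.42 (adjusted p = 0.0306), with 73.53 ± 3.69, 39.88 ± 4.23, 111.8 ± 7.48 and 45.4 ± 1.83 CPM. The SDs are over 3 libraries each. The call of MAFK was kept in the fits without each library. That of PSMG4 was lost without con replicate 1, TGFB replicates 1 or 3, SiNAT10 replicate 2 or SiNAT10_TGFB replicate 1 (−0.60 to −0.53). That of MAFF was kept only without TGFB replicate 2, SiNAT10 replicate 3 or SiNAT10_TGFB replicate 2, and stood at −0.44 to −0.37 without any other library. That of NLRC5 was kept only without con replicate 2, TGFB replicate 2, SiNAT10 replicate 3 or SiNAT10_TGFB replicate 1, and stood at −0.43 to −0.35 without any other.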

How the results depend on the processing

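PSMD2 in both TGF-β1 comparisons and the 10 genes named as kept in both siRNA comparisons were called in the same direction in all 27 alternatives. The number of subunit genes higher in TGFB than in con, 3 as reported, was 1 with scaling to library size alone, with no count filter, at a threshold of 0.01 and with FPKM without a filter, 5 with protein-coding genes alone, 6 with the replicate block and the GC trend removed, 7 with the GC trend removed or with the 2 groups alone, and 1 to 3 without 1 library; library size scaling gave 3 lower. In SiNAT10 against con 7 were lower with the GC trend removed and 5 with the replicate block besides. In SiNAT10_TGFB against TGFB 26 were higher by library size, and 8 or 7 lower with the GC trend removed without or with the block. In SiNAT10_TGFB against SiNAT10, 1 in place of 2 was higher with library size, upper-quartile scaling, the replicate block, a threshold of 0.01, the 2 groups alone and each FPKM setting, and 1 to 2 without 1 library. The replicate block changed no other count of subunit genes by over 1.5 times. Same-numbered libraries correlated by −0.0653 to 0.0485 in their deviations from group means, so no pairing by number was seen. With 3 libraries a group this cannot exclude one, and the labels do not say what a shared number means. With the GC trend removed the siRNA effect without TGF-β1 was 0.32 for MAFK, −0.003 for NGLY1, −0.159 for PSMA5, −0.109 for PSMD11 and −0.172 for PSMD6, and with TGF-β1 −0.196 for PSMA5, −0.033 for PSMC6, −0.155 for PSMD1, −0.027 for PSMD12 and −0.129 for PSMD6, signs opposite to those reported, for genes called in at least 1 of the fits. The cause was not tested. Over all genes, library size gave 1410 higher and 4623 lower in TGFB against con, 1510 lower in SiNAT10_TGFB against SiNAT10 and 641 higher for the difference. The threshold of 0.01 gave 1501 and 540 lower, and 174 and 209 for the difference, which was 683 and 670 with the GC trend removed (611 and 596 with the block) and 190 and 234 with unfiltered FPKM, which gave 627 lower in SiNAT10_TGFB against SiNAT10.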

Other observations

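PSMD2 ranked 77 among all genes by FPKM in con. Its nearest protein-coding neighbours with counts, named after their values were seen, are EIF4G1 at 141.4 FPKM (rank 166), CAMK2N2 at 13.78, FAM131A at 3.912 and CLCN2 at 1.713. With TGF-β1 their log2 fold changes were 0.30 for EIF4G1 (edgeR adjusted p = 1.00e-04), 0.07 for CAMK2N2 (adjusted p = 0.83), −0.06 for FAM131A (adjusted p = 0.737) and 0 for CLCN2, beside 0.57 for PSMD2.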
